A study of Mus musculus with 24 samples.

Results

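The genes described here were 6: Trem2, Tyrobp, Fcer1g, Syk, Plcg2 and Inpp5d, the receptor, adaptors and downstream signalling enzymes of one myeloid pathway. They were chosen by name, with earlier results of these data known. Every probe set that the annotation assigned to 1 of these symbols alone was used. That gave 11 of the 45037 non-control probe sets, for 6 of the 18193 genes tested. The main value of a gene came from its brightest probe set, by the mean of all 24 arrays. The samples were forebrain RNA from TgCRND8 mice, which carry the APPSwe/Ind transgene, a human amyloid precursor protein with the Swedish and Indiana mutations, and from wild-type littermates without it. Mice of each genotype were 70, 80 or 150 days old, with 4 mice and 4 arrays in each of the 6 groups. The labels do not name the promoter of the transgene or the sex of the mice.

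TREM2 is a surface receptor of microglia, the resident macrophages of the brain, and binds lipids, lipoproteins and amyloid beta. It has no signalling motif of its own and pairs with DAP12, the product of Tyrobp, whose immunoreceptor tyrosine-based activation motif (ITAM) is phosphorylated by Src-family kinases and then recruits the kinase SYK. SYK passes the signal to phospholipase C gamma 2 (Plcg2) and to phosphoinositide 3-kinase, while the lipid phosphatase SHIP1 (Inpp5d) opposes the phosphoinositide branch. Fcer1g codes for a second ITAM adaptor, which pairs with Fc receptors. In mouse models of amyloid deposition, microglia around plaques are known for high Trem2 and Tyrobp expression.

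RefSeq promoter windows of build GRCm38.p6, 250 bases upstream of an annotated start, were given for 5 of the 6 genes; none is shown for Tyrobp. The windows of Trem2 (chr17:48346151-48346400, plus strand), Inpp5d (chr1:87620062-87620311, plus strand) and Fcer1g (chr1:171234350-171234599, minus strand) are shown, 5′ to 3′ on the strand of the gene. The brighter Trem2 probe set differed between genotypes at day 150, while Inpp5d and Fcer1g, shown for comparison, did not pass. Capitals mark GAGGAA, the core bound by the myeloid factor PU.1, or its reverse complement TTCCTC.
Trem2: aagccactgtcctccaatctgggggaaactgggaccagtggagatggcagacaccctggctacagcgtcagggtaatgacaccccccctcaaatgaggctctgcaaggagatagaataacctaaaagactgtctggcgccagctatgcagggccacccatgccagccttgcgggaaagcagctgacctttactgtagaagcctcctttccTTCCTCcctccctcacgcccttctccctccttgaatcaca
Inpp5d: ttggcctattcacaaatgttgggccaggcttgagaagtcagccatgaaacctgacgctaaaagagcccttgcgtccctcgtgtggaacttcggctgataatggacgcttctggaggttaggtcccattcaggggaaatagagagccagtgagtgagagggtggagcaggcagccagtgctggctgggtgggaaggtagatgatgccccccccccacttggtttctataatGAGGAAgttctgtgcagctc
Fcer1g: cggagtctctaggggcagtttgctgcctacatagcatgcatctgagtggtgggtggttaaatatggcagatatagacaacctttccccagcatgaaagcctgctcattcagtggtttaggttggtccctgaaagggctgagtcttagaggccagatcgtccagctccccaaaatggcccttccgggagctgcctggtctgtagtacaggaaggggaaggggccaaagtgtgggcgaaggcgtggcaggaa
The Trem2 window held 1 match, on the opposite strand, starting 40 bases before the start site, and the Inpp5d window held 1 on the same strand, starting 20 bases before it. Fcer1g, Plcg2 and 1 of 2 Syk windows held 0, and the other Syk window held 1. Of all 32851 windows of this length, 23.3% held a match on either strand. A match describes these letters and is not a binding site.

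The arrays showed brain tissue: 7 of 7 neuron markers lay above the array median on all 24 arrays, as did 7 of 7 astrocyte markers; these genes are found throughout the brain and do not check for forebrain. Array medians were 4.28 to 4.37 log2 and lower quartiles 3.15 to 3.32, and the median correlation of an array with the others of its group was 0.991 to 0.996. Xist, the RNA of the inactive X chromosome, was low in 5 arrays (1 control of day 70, 2 TgCRND8 and 2 controls of day 80) and high in 19, so both sexes appeared to be present at days 70 and 80. Day 150 had 0 low arrays. In whole forebrain, fewer cells of a type and less RNA per cell cannot be told apart.

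Signal of the brighter of 2 Trem2 probe sets was higher in TgCRND8 forebrain at day 150, and its difference did not pass at either earlier age. The gene lies at chr17:48346401-48352276 (GRCm38.p6), and its brighter probe set, 1421792_s_at, averaged 4.89 log2 over all arrays, above the array median on 24 of 24. At day 150 the TgCRND8 arrays read 5.56, 5.35, 5.20 and 5.67 log2 signal, against 4.80, 4.85, 5.12 and 4.54 in controls. All 4 TgCRND8 arrays lay above all 4 controls, by 0.08 at the closest pair; 1.53% of all genes did so. At day 80 the TgCRND8 arrays read 4.84, 4.78, 4.71 and 5.05, against 4.86, 4.54, 5.02 and 5.16 in controls, and the groups overlapped. Day 70 arrays read 4.60, 4.63, 4.80 and 4.67 in TgCRND8 and 4.50, 4.70, 4.66 and 4.78 in controls, again overlapping. The groups were apart for 2.36% of genes at day 70 and 1.25% at day 80, and for 0 of the 6 described here. At day 70, 0% of genes passed by limma, 3.25% had unadjusted p under 0.05, and 0 of the 6 were among them.

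The Trem2 difference at day 150 was 0.62 log2 (SE 0.124; 95% confidence interval 0.36 to 0.87; 1.54-fold; adjusted p = 0.0326, limma with Benjamini-Hochberg correction over all genes, n = 4 per group). It was the 19th smallest p of the comparison, in which 0.121% of genes passed at an adjusted p under 0.05. With replicate number as a block the adjusted p was 0.0617 by limma. Leaving out 1 of the 8 arrays gave differences of 0.52 to 0.72, and Trem2 passed in 2 of these 8 fits, those without either array numbered 3. The other 6 fits had adjusted p of 0.0593 to 0.23 by limma. The difference was 0.01 at day 70 (interval -0.24 to 0.27) and -0.05 at day 80 (interval -0.30 to 0.21), with adjusted p = 1 for both, limma with Benjamini-Hochberg correction.

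The second Trem2 probe set, 1421226_at, did not show the day 150 difference. It read 3.87, 3.96, 3.91 and 3.89 in TgCRND8 and 4.07, 4.15, 3.92 and 3.76 in controls, a difference of -0.07 (exact permutation p = 0.429, n = 4 per group). It lay below the array median on 24 of 24 arrays and above the lower quartile on all of them. Within arrays the brighter probe set changed by 0.69 log2 more than the dimmer one (exact permutation p = 0.0286, two-sided, the smallest that 4 against 4 arrays allow). The annotation gives both the same transcript accession, and the suffix s marks a probe set whose probes can match more than one transcript. With the mean of both probe sets Trem2 differed by 0.28 (adjusted p = 0.924, limma with Benjamini-Hochberg correction). Which of the probe sets follows Trem2 RNA more closely was not tested.

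Tyrobp, the adaptor gene, showed the larger rise at day 150. It lies at chr7:30413782-30417582 and has 1 probe set, which averaged 7.42 log2. At day 150 it read 8.14, 8.27, 8.74 and 8.15 in TgCRND8, against 6.80, 7.09, 7.16 and 6.99 in controls. The groups were separated by 0.97 log2 at the closest pair. At day 80 the values were 7.09, 7.62, 7.86 and 7.03 in TgCRND8 and 7.03, 7.19, 7.70 and 7.36 in controls, with wide overlap. At day 70 they were 7.13, 7.19, 7.46 and 7.49 in TgCRND8 and 6.86, 7.22, 7.65 and 6.92 in controls, which also overlapped.

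The Tyrobp difference at day 150 was 1.31 log2 (SE 0.182; 95% confidence interval 0.94 to 1.69; 2.49-fold; adjusted p = 0.00076, limma with Benjamini-Hochberg correction, n = 4 per group), with the 3rd smallest p of all genes. It passed in all 8 fits that left out 1 array, at 1.18 to 1.38. At day 70 the difference was 0.16 (interval -0.22 to 0.53) and at day 80 it was 0.08 (interval -0.29 to 0.45), adjusted p = 1 for both, limma with Benjamini-Hochberg correction. These intervals do not mark the limit of detection with 4 arrays per group. The larger Tyrobp gain of 0.92 from day 80 to day 150 within TgCRND8 also did not pass (adjusted p = 0.0733 by limma).

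**Figure D1:**
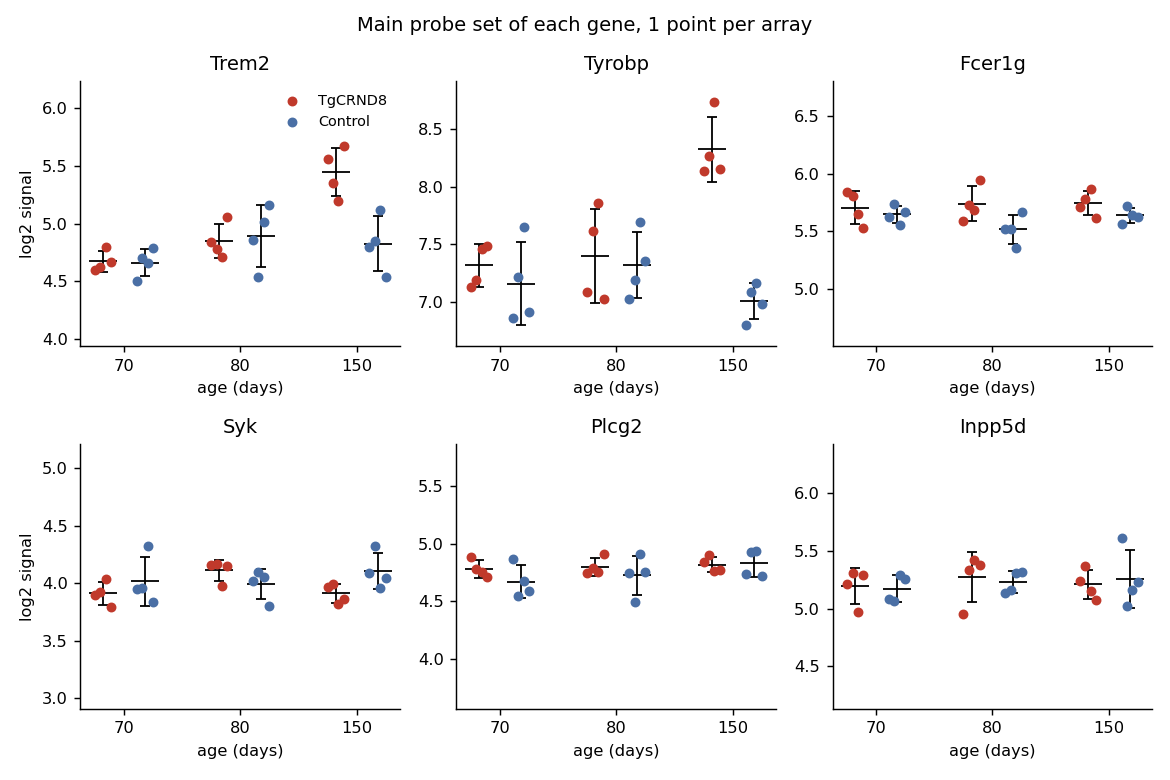
Log2 signal of the main probe set of each gene (vertical axis, each panel spanning the same height) by age in days, with TgCRND8 in red left of controls in blue; points are arrays (n = 4 per group), and bars are the mean and SD. Tyrobp and Trem2 stand apart in TgCRND8 at day 150, while the other 4 genes overlap between genotypes at each age.

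Fcer1g, the second ITAM adaptor gene, did not follow Tyrobp. It lies at chr1:171229572-171234349 and averaged 5.66 log2. At day 150 it read 5.71, 5.78, 5.87 and 5.62 in TgCRND8 and 5.57, 5.72, 5.64 and 5.63 in controls, with overlap. The difference was 0.11 (95% confidence interval -0.07 to 0.28; adjusted p = 0.999, limma with Benjamini-Hochberg correction, n = 4 per group). The largest Fcer1g difference came at day 80, where TgCRND8 read 5.59, 5.73, 5.68 and 5.95, against 5.52, 5.52, 5.36 and 5.66 in controls, and 3 of 4 TgCRND8 arrays lay above all controls. It was 0.22 log2 (interval 0.05 to 0.40), with unadjusted p = 0.0159 and adjusted p = 1 by limma. At that age 3.77% of the genes tested fell under an unadjusted p of 0.05, and 0% passed. Without the 5 arrays of low Xist it was 0.40 (adjusted p = 0.116, limma with Benjamini-Hochberg correction), with 2 TgCRND8 and 2 control arrays left at day 80.

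Of 13 measured markers of blood leukocytes, 9 were higher and 4 lower in TgCRND8 at day 80, where 50.9% of all genes were higher, and at day 70 the split was also 9 to 4. The neutrophil genes S100a9 (4.62 against 4.05 in controls, difference 0.57) and S100a8 (3.65 against 3.30, difference 0.35) had unadjusted p of 0.00305 and 0.00542 by limma. They were named after their values were seen, from 3 of the 13 with unadjusted p under 0.05, and 0 passed. S100a8 was dim, above the lower quartile on 10 of 24 arrays, and 2 of the 13 lay above the array median on all 24. The mean of the 13 at day 80 ranged from 3.65 to 3.81 in TgCRND8 and from 3.54 to 3.72 in controls, with overlap. Fcer1g is also expressed by neutrophils and mast cells. The part of these cells in its day 80 value was not tested. At day 150, 3 of the 13 were higher, with a mean of 3.47 to 3.69 in TgCRND8 and 3.54 to 3.68 in controls, and Ccr2, a marker of blood monocytes, differed by -0.11.

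Syk, the kinase that binds phosphorylated ITAMs, was not higher at day 150. The gene lies at chr13:52582610-52648792 and has 4 probe sets, all dim: the brightest, 1418261_at, averaged 4.01 log2 and exceeded the array median on 1 of 24 arrays. At day 150 it read 3.97, 4.00, 3.82 and 3.86 in TgCRND8 and 4.09, 4.32, 3.96 and 4.05 in controls, with TgCRND8 lower and the groups overlapping. The difference was -0.19 (95% confidence interval -0.39 to 0.005; unadjusted p = 0.0556, adjusted p = 0.999, limma with Benjamini-Hochberg correction, n = 4 per group). Differences at days 70 and 80 were -0.10 and 0.12, so the sign was not the same at the 3 ages. Of the other probe sets, 1418262_at, 1425797_a_at and 1457239_at differed by 0.05, 0.08 and -0.22 at day 150. The last lay above the lower quartile on 3 of 24 arrays and 1425797_a_at on 0, so their differences lie near the floor of the arrays.

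Plcg2, the phospholipase gene downstream of Syk, did not pass the test at any age. It lies at chr8:117498275-117635142, and its single probe set averaged 4.77 log2. At day 150 it read 4.84, 4.90, 4.77 and 4.77 in TgCRND8 and 4.74, 4.93, 4.94 and 4.72 in controls, the TgCRND8 values lying inside the control range. The difference was -0.01 (95% confidence interval -0.19 to 0.16; adjusted p = 0.999, limma with Benjamini-Hochberg correction, n = 4 per group), and its sign turned with quantile normalization or median centring of the arrays. At days 70 and 80 it was 0.11 and 0.07.

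Inpp5d, coding for the phosphatase SHIP1, likewise had no difference past the test, and its probe sets disagreed in sign. It lies at chr1:87620312-87720510. The brighter probe set, 1424195_a_at, read 5.24, 5.37, 5.16 and 5.08 at day 150 in TgCRND8 and 5.61, 5.02, 5.16 and 5.23 in controls, with the control arrays spread on both sides. Its difference was -0.05 (95% confidence interval -0.28 to 0.19; adjusted p = 0.999, limma with Benjamini-Hochberg correction, n = 4 per group). The dimmer probe set, 1418110_a_at, read 4.89, 4.78, 4.84 and 4.69 in TgCRND8 and 4.76, 4.55, 4.58 and 4.59 in controls. There 3 of 4 TgCRND8 arrays lay above all controls, with a difference of 0.18 (exact permutation p = 0.0571). The change differed between the probe sets by -0.23 within arrays (exact permutation p = 0.0857), which did not pass.

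**Figure D2:**
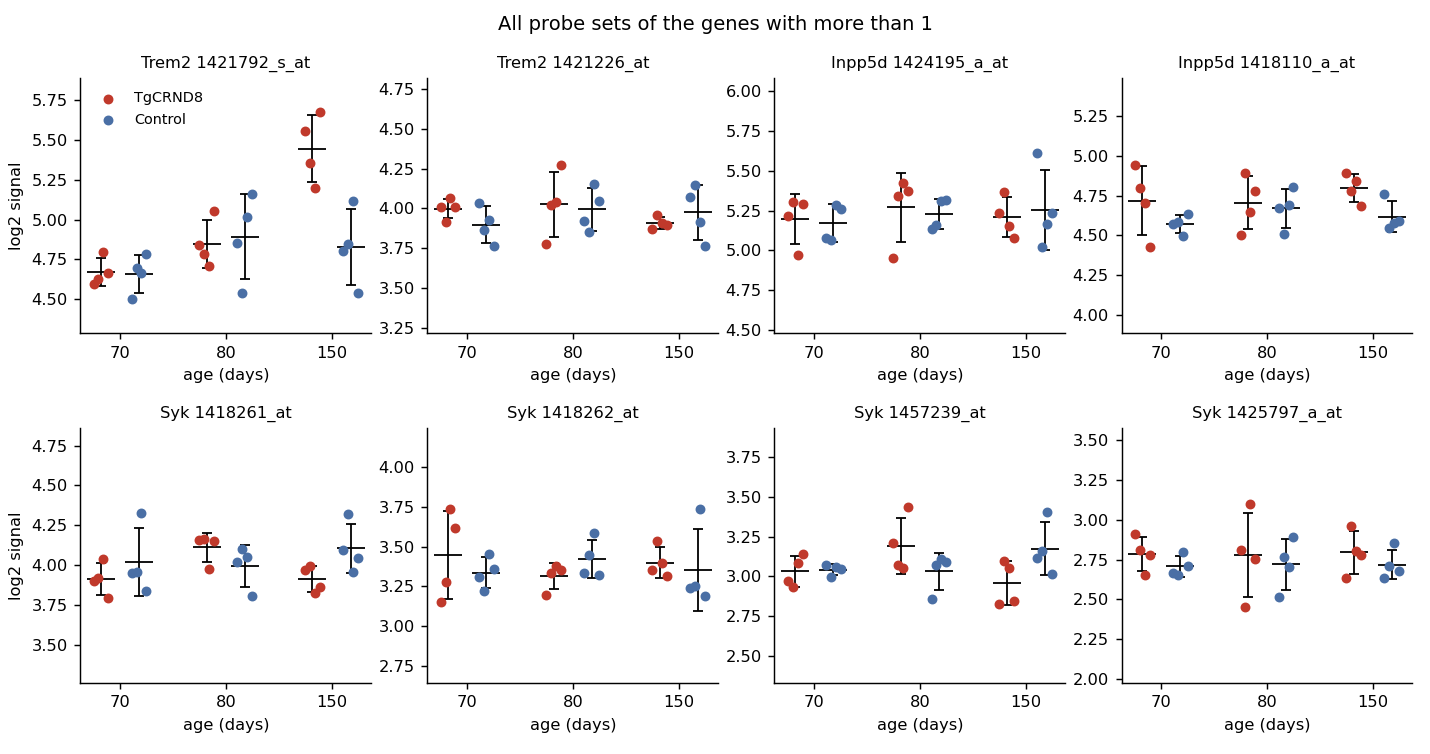
Log2 signal (vertical axis, equal span in each panel) of every probe set of Trem2, Inpp5d and Syk by age in days, TgCRND8 in red left of controls in blue, with 4 arrays per group and bars for mean and SD. The day 150 separation of Trem2 is seen in 1421792_s_at and not in 1421226_at.

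Across the 6 genes at day 150, 3 were higher and 3 lower, and their median was 0.05 log2, against 0.00 and 50.1% higher over all 18193 genes. Trem2 and Tyrobp passed and 4 did not. Trem2 lost its call with the replicate block and with the mean of its probe sets, and Tyrobp kept its call in both. Whether the signals of their main probe sets changed unequally was asked within arrays, over all 15 pairs of genes. Unequal signal need not be unequal RNA, since the 2 Trem2 probe sets also differed, by 0.69 log2. The Tyrobp difference exceeded that of Trem2 by 0.69 log2, Fcer1g by 1.21, Plcg2 by 1.33, Inpp5d by 1.36 and Syk by 1.51 (exact permutation p = 0.0286 each, or 0.0477 with Benjamini-Hochberg adjustment over 15 pairs; n = 4 per group). Trem2 exceeded Plcg2, Inpp5d and Syk by 0.63, 0.67 and 0.81 at the same exact permutation p, and Fcer1g by 0.51 (exact permutation p = 0.0571). Among the 4 that did not pass, the Syk minus Fcer1g difference was -0.30 (exact permutation p = 0.0286), and the other 5 pairs had exact permutation p of 0.143 to 0.857. These tests, like the other exact permutation tests here, permute the arrays freely. Within same-numbered pairs of day 150 arrays an exact test over sign flips cannot go below 0.125, so none of these differences could pass; the Tyrobp minus Trem2 change ran from 0.03 to 1.49 over the 4 pairs, and 8 of the 9 comparisons with Tyrobp or Trem2 on top were above 0 in all 4 pairs.

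**Figure D3:**
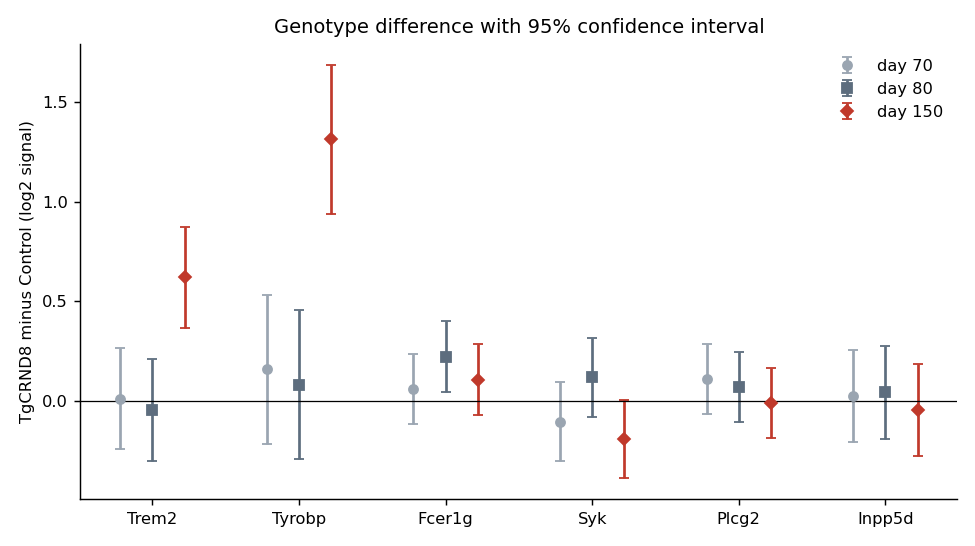
TgCRND8 minus control difference in log2 signal (vertical axis) for each gene, with 95% confidence intervals from the limma fit of all 24 arrays; grey circles are day 70, dark squares day 80 and red diamonds day 150. Intervals of Tyrobp (0.94 to 1.69) and Trem2 (0.36 to 0.87) lie above 0 at day 150, and that of Fcer1g (0.05 to 0.40) at day 80.

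Averaged over the 3 ages, with 12 arrays per genotype, Tyrobp was higher by 0.52 (adjusted p = 0.0717, limma with Benjamini-Hochberg correction), Trem2 by 0.19 and Fcer1g by 0.13. The last 2 had unadjusted p of 0.0115 and 0.0153 by limma, in a comparison where 3.16% of genes were under 0.05 and 0.0385% passed. With replicate number as a block, Tyrobp passed this comparison (adjusted p = 0.0056 by limma). The genotype difference at day 150 exceeded the mean of those at days 70 and 80 by 1.20 for Tyrobp and 0.64 for Trem2 (adjusted p = 0.0817 and 0.404, limma with Benjamini-Hochberg correction), where 0.011% of genes passed. In both comparisons the block also pairs arrays of days 70 and 80, where not all same-numbered arrays deviated together (lowest r -0.32 and -0.23). With the block the Tyrobp value for this change passed (adjusted p = 0.00177 by limma) and that of Trem2 did not. A larger genotype difference at day 150 than before was thus shown for Trem2 under none of the fits run.

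Within TgCRND8 mice, Tyrobp and the brighter Trem2 probe set rose between days 70 and 150. Trem2 was 0.78 higher at day 150 (adjusted p = 0.00362) and Tyrobp 1.01 higher (adjusted p = 0.018; both from limma after Benjamini-Hochberg correction, 4 arrays a group), with all 4 day 150 arrays above all 4 of day 70. Of all genes, 0.0824% passed as higher and 1.22% had all 4 arrays above. Against day 80 the gains were 0.60 and 0.92, with adjusted p of 0.0915 and 0.0733 by limma, where 0.022% passed. The dimmer Trem2 probe set did not show the rise: it differed by -0.09 between days 70 and 150 (unadjusted p = 0.351 by limma), with 3 of 4 day 150 arrays below all of day 70. These comparisons share the day 150 TgCRND8 arrays with the genotype difference. In controls none of the 6 genes passed between any ages by limma (0.022% of genes did between days 70 and 150, and 0% in the other comparisons), and none had unadjusted p under 0.05. Tyrobp was 0.31 lower in controls at day 150 than at day 80 (unadjusted p = 0.1), and Trem2 was 0.23 higher at day 80 than at day 70 (unadjusted p = 0.0734).

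The group means were also put in order. For Tyrobp the order from the top was TgCRND8 day 150 (8.32), TgCRND8 day 80 (7.40), control day 80 (7.32), TgCRND8 day 70 (7.32), control day 70 (7.16) and control day 150 (7.01). The step below the first, 0.92, exceeded the larger SD of its neighbours (0.407), and no other step did. For Trem2 the order was TgCRND8 day 150 (5.45), control day 80 (4.89), TgCRND8 day 80 (4.85), control day 150 (4.83), TgCRND8 day 70 (4.67) and control day 70 (4.66), and again the first step (0.55, against an SD of 0.267) was the one to exceed its neighbours' spread. For Fcer1g the 3 TgCRND8 means (5.70 to 5.74) lay above the 3 control means (5.51 to 5.65), with steps smaller than the SD. Group means spanned 0.20 log2 for Syk, 0.16 for Plcg2 and 0.10 for Inpp5d, and no step between neighbours exceeded the larger SD.

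Microglial marker genes mostly had higher values in TgCRND8 at day 150, by a small median, without passing singly. Of 11 measured markers of microglia and brain macrophages, 10 were higher in TgCRND8, where 50.1% of all genes were higher. The median was 0.18 against 0.00 for all genes, and the differences ran from -0.0003 to 0.52, the largest that of Gpr34. By limma 0 passed, and 4 had unadjusted p under 0.05, as did 4.38% of all genes. Csf1r, the receptor that sustains microglia, read 9.71 against 9.47 in controls, and the fractalkine receptor gene Cx3cr1 read 7.40 against 7.30; Aif1, coding for IBA1, read 4.94 against 4.63. The mean of the 11 ranged from 5.64 to 5.87 in TgCRND8 and from 5.48 to 5.60 in controls, a difference of 0.21 (exact permutation p = 0.0286).

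Set against that mean within each array, the 6 genes gave relative differences of both signs, none of which passed after adjustment. Tyrobp stood 2.38 to 2.86 above the microglial mean in TgCRND8 and 1.32 to 1.57 above it in controls at day 150, a difference of 1.11 (exact permutation p = 0.0286, n = 4 per group). For Trem2 the relative difference was 0.41 (exact permutation p = 0.0571), and the groups overlapped. The relative difference was -0.40 for Syk and -0.22 for Plcg2 (exact permutation p = 0.0286 each), and -0.25 for Inpp5d and -0.10 for Fcer1g (exact permutation p = 0.2 and 0.0857). The groups were apart for Syk and barely so for Plcg2, whose highest TgCRND8 value was -0.801 and lowest control value -0.799. Each relative value subtracts the microglial mean, which itself differed by 0.21. Alone, Plcg2 differed by -0.01 and Syk by -0.19, so these 2 results are not separate from the rise of that mean. After Benjamini-Hochberg adjustment over these 6 tests the smallest value was 0.0571, which does not pass. A ratio within an array compares signals of different probe sets and does not show that one gene stayed constant. The 2 Trem2 probe sets differed by 0.69 log2 in their own change, so unequal signal need not be unequal RNA.

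Border macrophage and astrocyte markers were examined beside this. Of 6 markers of perivascular and meningeal macrophages 4 were higher at day 150 and 0 passed by limma (0 had unadjusted p under 0.05); Mrc1 read 3.94 in TgCRND8 and 3.76 in controls. Their mean was 3.48 to 3.62 in TgCRND8 and 3.37 to 3.58 in controls. Of these 6 markers, 0 lay above the array median on all 24 arrays and 1 lay below the lower quartile on all 24, so a change could go unseen. Gfap, the filament gene of reactive astrocytes, rose by 1.42 at day 150 (8.56 against 7.15 in controls; adjusted p = 2.14e-06, limma with Benjamini-Hochberg correction, n = 4 per group), while the other 6 astrocyte markers did not pass. The lists for neurons, oligodendrocytes and endothelium had 0 passing genes between genotypes at day 150 by limma and 0 with unadjusted p under 0.05, with medians of 0.00, 0.02 and -0.06.

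The rest of the pathway was followed through 5 lists of genes, in which 0 of 69 measured members passed at day 150 by limma. TREM2 ligands and the proteases that shed its ectodomain were higher for 5 of 6, with a median of 0.09. The smallest p belonged to the clusterin gene Clu (0.14) and the galectin-3 gene Lgals3 (0.17), unadjusted p = 0.0981 and 0.149 by limma. Other receptors that signal through Tyrobp or Fcer1g were higher for 6 of 15, with a median of -0.01. Most were dim: 2 of the 15 lay above the array median on all 24 arrays, and 2 lay below the lower quartile on all 24. A change in the dim ones could go unseen. Among them Fcgr3, the Fc gamma receptor III chain that pairs with the Fcer1g product, read 6.28 ± 0.11 in TgCRND8 and 5.77 ± 0.14 in controls (SD, n = 4 each), with all 4 TgCRND8 arrays above all controls. Its difference of 0.51 did not pass (adjusted p = 0.186, limma with Benjamini-Hochberg correction). Siglech, a DAP12-coupled lectin gene of microglia that is also in the microglial list, differed by 0.30 (unadjusted p = 0.0341 by limma). Fcgr3 and Siglech were the 2 receptors above the array median on all 24 arrays.

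Src-family kinase genes, whose products phosphorylate ITAMs, were higher for 3 of 5 measured, with a median of 0.00; Fyn differed by 0.13 and Yes1 by 0.25, unadjusted p = 0.0805 and 0.102 by limma. Adaptors and effectors below Syk were split, 14 higher and 14 lower of 28, with a median of 0.00. The smallest p were those of Blnk (0.23), an adaptor that SYK phosphorylates, and Grb2 (0.18), a linker to Ras signalling, unadjusted p = 0.0194 and 0.0319 by limma, and 3 of 28 were under 0.05. Across all genes 4.38% had unadjusted p under 0.05 at this age. The inhibitory branch was higher for 7 of 15, with a median of -0.02, and 0 were under an unadjusted p of 0.05; Sirpa, the receptor for CD47, differed by 0.18 and the CD200 receptor gene Cd200r1 by 0.10. Card9 and Lilrb4a were not analysed here. At days 70 and 80, and for the mean over ages, 0 of the 69 genes passed by limma.

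**Figure D4:**
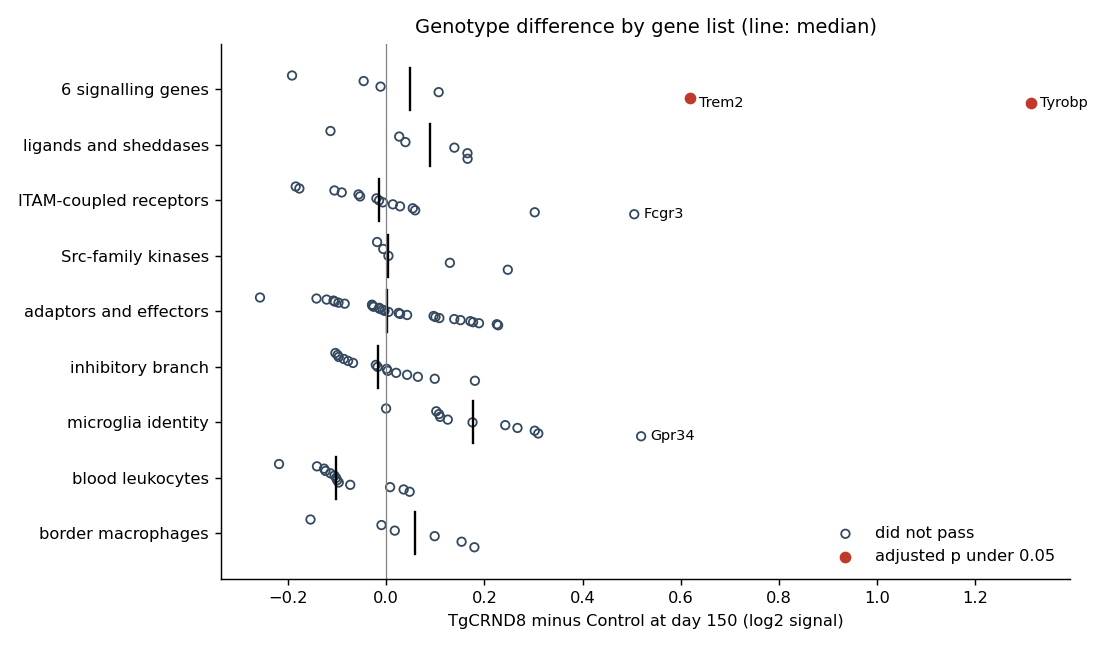
TgCRND8 minus control difference at day 150 in log2 signal (horizontal axis) of each measured gene, by list (rows), with a line at each list's median; filled points passed at an adjusted p under 0.05 by limma, open points did not. Trem2 (0.62) and Tyrobp (1.31) are the filled points; of the genes in the lists drawn, Gpr34 (0.52) and Fcgr3 (0.51) come next.

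Genes with patterns most like those of Trem2 and Tyrobp were named by Pearson's r over the 24 arrays, which share the group differences. For Tyrobp they were Ly86 (r = 0.91, Spearman's rho 0.88), Cd52 (0.89, rho 0.84), C1qb (0.88, rho 0.82), C1qa (0.88, rho 0.77) and Rnase4 (0.88, rho 0.83). Without the TgCRND8 day 150 arrays r over 20 arrays was 0.68 to 0.78 for these 5. With group means subtracted they ranked 483rd to 1636th among all genes in correlation with Tyrobp, so the correlation within groups was not particular to them. For Trem2 they were Cst7 (r = 0.83, rho 0.69), Ctsd (0.78, rho 0.55), B2m (0.77, rho 0.57), Cd14 (0.76, rho 0.70) and Ccl3 (0.76, rho 0.60), and r over the 20 arrays was 0.17 to 0.49.

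Trem2 and Tyrobp, receptor and adaptor, correlated with each other at r = 0.64 over 24 arrays (rho 0.43). Over the 20 arrays without TgCRND8 day 150 r was 0.11, and with each group's mean subtracted it was -0.08.

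The variation of Tyrobp among mice of a group followed a component shared by many genes. The first principal component of the values with group means subtracted held 25.3% of the variance within groups, and Tyrobp deviations tracked it with r = 0.96 (Spearman's rho 0.95, over 24 arrays), while those of Trem2 did not (r = -0.02). For Syk, Plcg2, Inpp5d and Fcer1g r was 0.20, 0.11, 0.25 and -0.18. Tyrobp deviations correlated above 0.7 with those of 1088 other genes and Trem2 deviations with 10. Arrays numbered 1 lay below their group's mean for both the component and Tyrobp in 6 of 6 groups, and arrays numbered 3 lay above it in 6 of 6. Control probes for the 3′ and 5′ ends of Gapdh, a sign of RNA integrity, had r = 0.07 with Tyrobp deviations, and those for actin 0.31. For actin r was -0.36 with Trem2 deviations and -0.44 with those of Fcer1g. What the component stands for was not tested.

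Scores on the component overlapped between genotypes. The score averaged -1.84 in TgCRND8 and -0.90 in controls at day 150, with ranges of -9.90 to 9.23 and -6.70 to 2.94, and the groups overlapped. With each array's score as a covariate, Tyrobp differed by 1.34 at day 150 (SE 0.0686, against 0.182 without it), by 0.11 at day 70 and by 0.08 at day 80. Trem2 differed by 0.62 at day 150 in that fit, with SE 0.125. The component was computed from these same values, so the smaller Tyrobp SE follows from how closely Tyrobp tracks it.

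**Figure D5:**
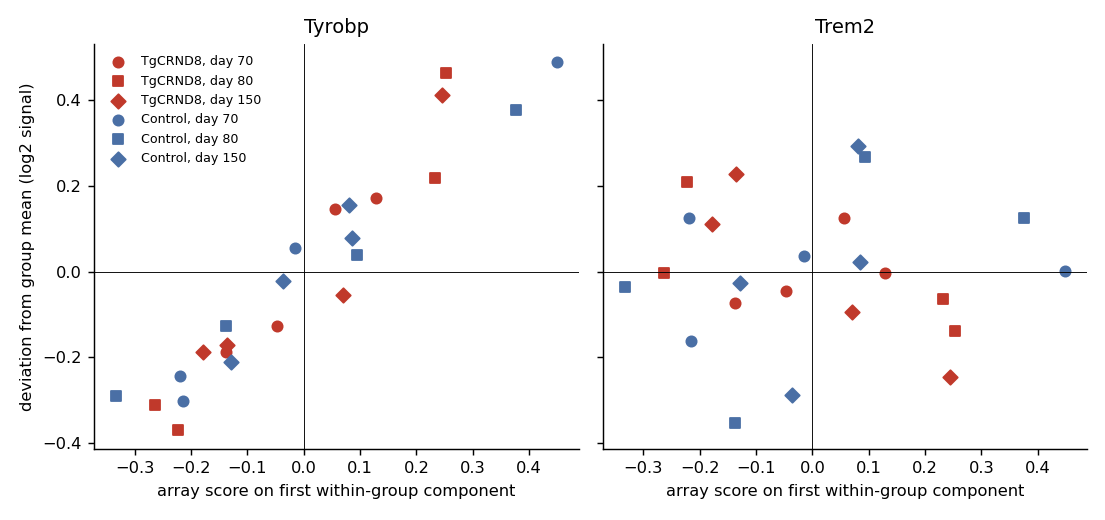
Deviation of Tyrobp (left) and Trem2 (right) from the group mean in log2 signal (vertical axis) against each array's score on the first component of within-group variation (horizontal axis, no unit), 24 arrays, TgCRND8 in red and controls in blue, with circles, squares and diamonds for days 70, 80 and 150. Tyrobp rises along the component (r = 0.96) and Trem2 does not (r = -0.02).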

How the data were processed

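Gene expression was measured in forebrain RNA of 24 mice on Affymetrix mouse arrays, 1 array per mouse, 4 mice in each of 6 groups; the number of arrays limits the precision. The authors deposited log2 signals per probe set for all arrays, per the labels; how they corrected and normalized them is not stated in the labels, and a normalization that forces equal distributions would hide a shift of all genes. Per the labels' protocols, RNA was primed with oligo(dT), so signal follows the 3′ end of transcripts.

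Of 45101 probe sets, 64 controls were set aside, and 34945 of the rest had 1 gene symbol, 932 several and 9160 none. The probe set with the highest mean represented each of 18193 genes. Differences were fitted with limma 3.58.1 in R 4.3.3 on all 24 arrays as 6 group means, with Benjamini-Hochberg adjustment over all genes of a comparison and a threshold of 0.05. Exact permutation tests were two-sided over the 70 labellings of 4 against 4 arrays. The fitting code was tested on simulated data. Replicates were separate mice per the labels. Same-numbered day 150 arrays deviated together (r = 0.256, 0.194, 0.137 and 0.217), which meets the rule for pairing at that age; at days 70 and 80 not all pairs did (lowest r -0.32 and -0.23). The labels do not say what the numbers mark. Blocked values are given where they change a call.

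The members and lists were chosen with earlier results of these data known. The text names all members, each pathway gene that passed or otherwise the 2 with the smallest p at day 150, the first markers of each marker list, and the 5 genes most like Trem2 and Tyrobp; S100a8, S100a9, Gpr34 and Siglech were named after their values were seen. Alternatives were other normalizations, a filter on dim genes, the mean of probe sets, all probe sets, array weights, Xist as a covariate, the block, the compared arrays alone and leaving out each array. A covariate for the first component and leaving out low-Xist arrays, and sign flips within same-numbered pairs, were added after seeing the data. Promoter sequences are RefSeq's.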

Additional observations from a re-analysis of the deposited data

Results flagged for a closer look

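Within the 66 groups of 4 arrays formed by the 11 probe sets, 3 held an array far from the other arrays of its group by Dixon's test at the 95% level, a test that picks out some groups by chance alone. All 3 were in probe sets of Syk, which has 4 of the 11. Of these, 1457239_at lay above the lower quartile on 3 of 24 arrays. Probe set 1418261_at read 3.98 on TgCRND8 array 3 of day 80, with the nearest array of the group at 4.15. Probe set 1418262_at read 3.74 on control array 3 of day 150, against 3.25 on the nearest, and 1457239_at read 2.86 on control array 1 of day 80, against 3.07. No other gene of the 6 had such an array. A count of 3 in 66 is near what chance alone gives at this level, so it is not a trait of Syk.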

How the results depend on the processing

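Tyrobp at day 150 kept its call in 13 of 13 other settings (1.29 to 1.34) and in all 8 fits without 1 array (1.18 to 1.38). The 13 include both component covariates, which could not weaken this call. Trem2 at day 150 lost its call with the mean of its probe sets (0.28), with the replicate block (0.62, adjusted p = 0.0617 by limma) and with the 8 compared arrays alone (0.62, adjusted p = 0.0732 by limma), leaving 1 gene called in each. Without 1 array it was 0.52 to 0.72, with 1 to 2 genes called; the causes were not tested. The count of all genes called at day 150 was 22, and 35 with array weights. Tyrobp's mean over ages did not pass in the main fit (adjusted p = 0.0717 by limma). It passed in 4 of 12 other settings, among them array weights and the replicate block (adjusted p = 0.00842 and 0.0056 by limma). Of 24 fits without 1 array it passed in 4, with adjusted p up to 0.181 by limma. Its change at day 150 did not pass in the main fit either (adjusted p = 0.0817 by limma). That change passed in 6 of 12 other settings. Among these were array weights, the block, median centring and leaving out low-Xist arrays (adjusted p = 0.0318, 0.00177, 0.0485 and 0.0392 by limma). Of 24 fits without 1 array the change passed in 2, with adjusted p up to 0.321 by limma. With either component covariate the adjusted p was 3.86e-08 and 5.33e-08 for the mean, and 6.22e-09 and 2.67e-09 for the change, by limma. The component was computed from these same values and Tyrobp tracks it closely, so these fits had to lower its SE. They are no separate support.

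Signs turned for small differences that did not pass. With median centring Plcg2 at day 150 was 0.0117 (0.00274 with quantile normalization), Trem2 at day 70 was -0.00466 and the Fcer1g change at day 150 was 0.00937. With the mean of probe sets Syk was 0.0189 at day 70 and 0.00126 over ages, and Inpp5d 0.0668 at day 150 and 0.00447 for the change. Without low-Xist arrays Trem2 was 0.14 and Tyrobp -0.12 at day 80. Without 1 array the ranges were -0.0434 to 0.0517 for Trem2 and -0.0130 to 0.0985 for Inpp5d at day 70; -0.16 to 0.0434 for Trem2, -0.0748 to 0.21 for Tyrobp, -0.00605 to 0.13 for Plcg2 and -0.00723 to 0.15 for Inpp5d at day 80; -0.0502 to 0.0238 for Plcg2 and -0.12 to 0.0718 for Inpp5d at day 150; -0.0194 to 0.0462 for Inpp5d over ages; and -0.16 to 0.0384 for Inpp5d and -0.0752 to 0.00843 for Fcer1g for the change. The replicate block changed no other call of the 6 genes beyond those of Trem2 and Tyrobp given here. Dim Syk probe sets limit what can be said of that gene.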
